A study of Homo sapiens with 3 samples.

Results

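Peaks of protein-bound RNA that lay outside every annotated gene and had a summit of their own were described in 2 deposited peak lists. A peak was included if its summit, the position of highest signal given by the peak caller, fell on chromosomes 1 to 22 or X in no gene of the RefSeq annotation of GRCh38. Peaks exactly 30 bases wide with the summit offset at 15, called flat here because the summit sits in the fixed middle of a peak of the smallest width, were left out. The deposited lists are called the RPL22 set and the RPL22L1 set after the tagged protein. Chosen were 2089 of the 154000 peaks of the former and 2371 of the 254413 peaks of the latter. These sets also held 12800 and 19776 flat intergenic peaks, and 51887 and 53745 shaped (not flat) peaks with the summit in a gene.

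The sets come from GoldCLIP, in which a protein fused to HaloTag is captured covalently after crosslinking, so that RNA bound to it can be washed stringently and sequenced without a gel. All 3 samples were HCT116 cells, a human colorectal carcinoma line, and carried HaloTag alone, RPL22-HaloTag or RPL22L1-HaloTag as their genotype. Each was 1 library, and without values for HaloTag alone, which was not analysed here, no peak could be set against a tag-only background. With 1 library per protein, differences between the sets have no replicate check and no p-value is given. The 95% intervals below are exact (Clopper-Pearson) and cover counting error only. The files used give no number of reads behind a peak, so depth is unknown, and the peaks carry no strand.

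RPL22 belongs to the proteins of the large ribosomal subunit and also binds RNA outside the ribosome, and RPL22L1 is its paralog. Transfer RNA genes are transcribed by RNA polymerase III from promoter elements inside the gene, named the A box and the B box. The primary transcript starts a little before the mature tRNA and runs past its end to a run of T in the DNA. The leader is then removed by RNase P and the trailer by RNase Z, so that a RefSeq tRNA gene, which marks the mature tRNA, leaves both outside its bounds.

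Sequence was at hand only for peaks in the RefSeq promoter windows of GRCh38, which cover 250 bases before to 50 bases after the start of a gene. Of the intergenic shaped peaks, 63 of the RPL22 set and 29 of the RPL22L1 set had the summit in such a window, and 4 and 5 of them lay at the edge of a tRNA gene. Of these, 4 stretches are shown because their summits lay near the boundary between the tRNA and its trailer. They are written in the direction of the tRNA, read from the B box letters GTTCNANNC found on that strand of the window, with the tRNA gene in lower case and the bases outside it in capitals.
TRL-AAG2-4, chr16:22297207-22297237, RPL22 set: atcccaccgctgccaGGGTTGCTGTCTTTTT
TRP-TGG3-2, chr14:20684073-20684103, RPL22L1 set: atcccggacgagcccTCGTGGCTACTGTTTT
TRI-AAT1-1, chr6:57800271-57800326, RPL22 set: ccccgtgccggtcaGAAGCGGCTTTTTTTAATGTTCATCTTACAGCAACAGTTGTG
TRH-GTG1-9, chr15:45201132-45201283, RPL22L1 set: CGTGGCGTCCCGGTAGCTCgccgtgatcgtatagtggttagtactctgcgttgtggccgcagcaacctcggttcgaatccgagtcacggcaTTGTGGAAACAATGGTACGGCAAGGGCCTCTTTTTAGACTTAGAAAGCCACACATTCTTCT
All 4 summits lay on the 3′ side of the tRNA, the position for which these stretches were picked. Edge peaks in windows at TRF-GAA2-1 in both sets and at TRV-CAC1-6 in the RPL22L1 set are not shown. Their side was not read. The first run of at least 4 T began 12 bases past the tRNA end for TRL-AAG2-4, 13 for TRP-TGG3-2, 9 for TRI-AAT1-1 and 31 for TRH-GTG1-9. The peaks shown at TRL-AAG2-4 and TRP-TGG3-2 ended inside that run, while those at TRI-AAT1-1 and TRH-GTG1-9 ran past it. The TRH-GTG1-9 peak also covered the whole tRNA and bases before it. For the whole windows of 300 bases, GTTCNANNC stood on either strand in 7.48% of the 35097 promoter windows and TTTT on either strand in 71.4%. These shares cover a longer stretch and both strands, so they do not measure how common a T run just past a tRNA end is.

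Another group of sequences is from intergenic shaped peaks with the summit at most 100 bases before a protein-coding gene, written in the direction of that gene, with capitals on the summit and up to 5 bases on each side. The FOXB2 peak reached into the gene, and its sequence is given up to the last base before it. They are shown because both sets held a peak at FOXB2, a forkhead transcription factor gene, and at SLC32A1, which encodes the vesicular GABA transporter, while UBE2N, a ubiquitin-conjugating enzyme gene, held a peak in the RPL22L1 set.
FOXB2, chr9:77019627-77019654, RPL22 set: ccggagggcggtggAGGAGCCGGGGgcg
SLC32A1, chr20:38724426-38724455, RPL22 set: gccgcCGCCGCCGCCGccgccgccctccgc
UBE2N, chr12:93442023-93442052, RPL22L1 set: gcCCGAGCCCGCGcccgagcagggactaca
The FOXB2 summit lay 9 bases before the gene with a score of 908 in the RPL22 set and 10 bases before it with a score of 471 in the RPL22L1 set. The SLC32A1 summits lay 50 and 53 bases before the gene, with scores of 220 and 323 in the RPL22 and RPL22L1 sets. The UBE2N summit lay 98 bases before its gene with a score of 1110, and the RPL22 set had no overlapping peak.

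The peaks were narrow. The median width was 30 bases in the RPL22 set and 34 in the RPL22L1 set, and the widest peaks spanned 175 and 185 bases. A width of exactly 30 bases was found for 58.8% of the RPL22 peaks and 37.8% of the RPL22L1 peaks, where a summit offset other than 15 kept them from being flat. The summit was within 1 base of the middle of the peak for 23.5% (491 of 2089) and 32.6% (773 of 2371), against 17.1% and 29.3% of the shaped peaks in genes. Right at the bound of the rule, 240 RPL22 and 166 RPL22L1 peaks were 30 bases wide with the offset at 14 or 16, with median scores of 58 and 115, where the flat intergenic peaks had 21 and 115. On the other bound, 18 peaks in each set had the summit 1 base outside a gene, with median scores of 7688.5 and 4647, and 8 and 7 shaped peaks had it on the first or last base of a gene, with 131.5 and 208. The name intergenic holds for the summit: 4.88% of the RPL22 peaks and 5.74% of the RPL22L1 peaks still shared at least 1 base with a gene.

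Scores were read within each set, since their scale is not stated. The median score was 72 in the RPL22 set, which placed the median peak in the top 19.1% of that set, and 224 in the RPL22L1 set, in its top 19.6%. Of the RPL22 peaks, 27.5% (575 of 2089; 95% interval 25.6 to 29.5) had a score in the top 10% of the set, beside 27.5% of all its shaped peaks and 10% of all its peaks. Of the RPL22L1 peaks the share was 34.3% (814 of 2371; 32.4 to 36.3), beside 32.2% of the shaped peaks and 10% of all. At the extreme the intergenic peaks stood higher: 9.96% and 10.7% were in the top 1% of their set, against 2.48% and 3.82% of the shaped peaks in genes. Without the peaks at tRNA genes described next, these shares were 6.9% and 7.05%.

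Many of the highest scores sat at the edges of tRNA genes. Among RPL22 peaks, 75 intergenic shaped ones had the summit at most 20 bases outside a tRNA gene, which is 0.139% of the shaped peaks. Among RPL22L1 peaks there were 102, or 0.182%. The 75 and 102 peaks belonged to as many different tRNA genes, 16.9% and 23% of the 443 in the annotation. They made up 39.6% (59 of 149) of the RPL22 peaks with a score of at least 1000 and 37.6% (91 of 242) of those in the RPL22L1 set. Their scores ran from 100 through a median of 3694 to 162304 in the RPL22 set, and from 168 through 3718 to 52251 in the RPL22L1 set. The median tRNA-edge peak was thereby in the top 0.181% and 0.163% of its set, and 92% and 91.2% were in the top 1%.

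**Figure D1:**
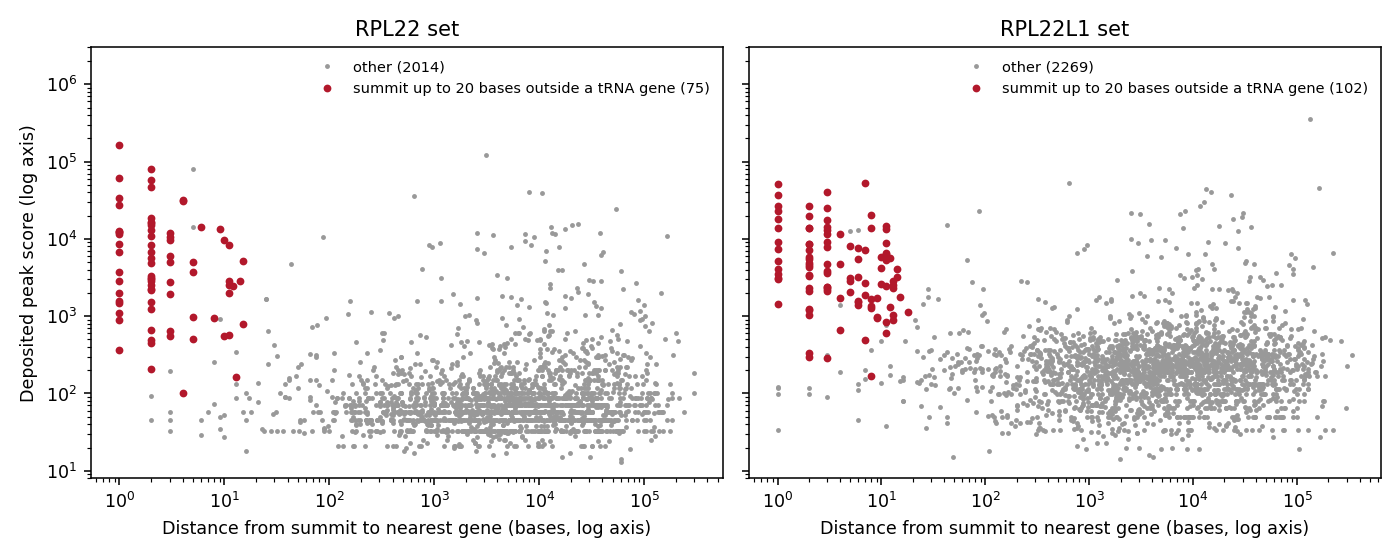
Deposited score of each intergenic shaped peak (both axes logarithmic) against the distance in bases from its summit to the nearest gene, in the RPL22 set (left) and the RPL22L1 set (right). Red points are peaks with the summit up to 20 bases outside a tRNA gene (75 and 102), and grey points are the other 2014 and 2269; the red points stand at the shortest distances with median scores of 3694 and 3718, while the grey points have medians of 72 and 205 at all distances.

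The summits hugged the tRNA bound. The median offset was 2 bases in the RPL22 set and 3.5 in the RPL22L1 set; 53 of 75 and 51 of 102 were within 3 bases, and 65 and 82 within 10. Most peaks reached across the bound, since 69 of the 75 and 97 of the 102 shared at least 1 base with the tRNA gene. They were wider than the other intergenic shaped peaks, with medians of 46 and 51 bases against 30 and 33, and 10.7% and 12.7% were exactly 30 bases wide against 60.6% and 39%. By coordinate, 32 RPL22 summits lay below and 43 above the tRNA gene, and 48 and 54 in the RPL22L1 set; the strand of most tRNA genes is not in the table used here, so the 5′ and 3′ sides were told apart only for the peaks with sequence. Shaped peaks also had their summit inside tRNA genes, in 108 genes of the RPL22 set and 97 of the RPL22L1 set. A shaped summit both inside and at the edge was found for 3 genes of the RPL22 set and none of the RPL22L1 set. The median tRNA gene is 73 bases long and most edge peaks reached into it, which leaves little room for another peak. No expected count was set beside these numbers.

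The same tRNA genes recurred in both sets. An edge peak was present in both for 64 tRNA genes, which is 85.3% of the 75 in the RPL22 set and 62.7% of the 102 in the RPL22L1 set. In all 64 the summit was on the same side of the gene, the median gap between the summits of the sets was 1 base, and 43 were within 2 bases. Across these genes the scores had a Spearman rho of 0.74, given as a description since neighbouring tRNA copies can share reads. TRL-CAG2-2, a leucine tRNA gene, had the highest score of any intergenic shaped peak in the RPL22 set, 162304 (rank 10 in that set), with the summit 1 base below the gene, and 37314 (rank 102) at the same base in the RPL22L1 set. TRC-GCA14-1, a cysteine tRNA gene, scored 62055 (rank 32) and 23257 (rank 125), again with both summits on the base next to the gene. TRP-TGG3-2, a proline tRNA gene, scored 32241 (rank 60) in the RPL22 set and 52251 (rank 81) in the RPL22L1 set. TRS-CGA3-1, a serine tRNA gene, scored 27322 (rank 67) and 51105 (rank 85), with both summits 1 base below the gene. TRQ-TTG1-1, a glutamine tRNA gene, scored 79557 (rank 27) and 14389 (rank 175), with the summits 2 and 3 bases outside the gene. TRQ-TTG3-1, also a glutamine tRNA gene, scored 56931 (rank 37) and 8587 (rank 252), with both summits on the same base. In contrast TRQ-TTG3-3, another glutamine tRNA gene, held a peak with a score of 33952 (rank 58) in the RPL22 set. There the nearest peak of the RPL22L1 set was 4501 bases away.

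Families of tRNA genes were represented unevenly. Proline genes had an edge peak for 10 of 20 in the RPL22 set and 13 of 20 in the RPL22L1 set, with 9 in both. Serine genes had 10 and 11 of 26, leucine genes 8 and 9 of 32, and glutamine genes 7 and 6 of 19. Cysteine genes had 7 and 9 of 29. Alanine genes had 1 and 3 of 33 and arginine genes 0 and 1 of 26, while valine genes had 4 in the RPL22 set and 11 of 28 in the RPL22L1 set. The tRNA gene cluster on chromosome 6 between 26 and 29 Mb held 24 and 33 of the edge peaks. Copies within a family can be nearly identical, and how reads that map to several copies were placed is not given in the sources used here, so values of single copies are uncertain. The annotation also types 87 tRNA copies as pseudogenes, and 3 RPL22 peaks and 2 RPL22L1 peaks lay at most 20 bases outside them. At TRQ-CTG9-1 the summit was 5 bases outside the gene with scores of 79087 and 12625, and at TRS-ACT1-1 5 bases outside in the RPL22 set with 14209, where the RPL22L1 set had a peak of 13151.

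Away from genes, a small number of peaks also reached high scores. Of the peaks with a score of at least 1000, 48 of 149 in the RPL22 set and 81 of 242 in the RPL22L1 set lay more than 10 kb from any gene. Of all intergenic shaped peaks, 32.6% and 32.7% lay between 10 and 100 kb away, and 3.06% and 3.25% farther. The high-scoring peaks were thus not more often that far from a gene. The high-scoring peaks not at a tRNA gene edge were narrow, like such peaks at any score: 80 of 90 and 112 of 151 were at most 40 bases wide. Their median widths were 31 and 33 bases, beside 30 and 33 for all intergenic shaped peaks away from tRNA edges. A peak 7989 bases upstream of CREBL2, chr12:12603878-12603909, scored 40340 (rank 49) and 13795 (rank 184), at the same summit base in the RPL22 and RPL22L1 sets. A peak 642 bases from TRUND-NNN1-1, a tRNA pseudogene, scored 35721 (rank 53) and 52239 (rank 82). A peak 10562 bases from the lncRNA gene LOC105369993 scored 38694 (rank 50) in the RPL22 set and 4003 (rank 396) in the RPL22L1 set.

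The highest score among the RPL22L1 peaks belonged to a peak with no counterpart. At chr2:166743626-166743656 the set had a score of 351967 (rank 22), 132428 bases from the nearest gene, the lncRNA gene LOC107985958, and the nearest RPL22 peak was 115155 bases away. The next such peak lay 14892 bases downstream of HHEX, a homeobox transcription factor gene, with a score of 40724 (rank 99) and the nearest RPL22 peak 15209 bases away. Peaks near the lncRNA genes ZMIZ1-AS1, LOC105377141 and LOC101927241 followed, with scores of 21729, 17911 and 15442. The corresponding RPL22 peaks without an RPL22L1 peak within 1000 bases were, after TRQ-TTG3-3, a peak 1124 bases upstream of DDX60, a helicase gene, with 8737 (rank 166), and edge peaks at TRS-GCT6-1 with 8452, TRP-TGG3-3 with 3159 and TRC-GCA21-1 with 2450. Far from genes, the peak 163239 bases from PPIAP14, a pseudogene, was in both sets on the same summit base, with a score of 10977 (rank 141) in the RPL22 set and 45106 (rank 92) in the RPL22L1 set. The peak 13325 bases from RIPPLY3P1 scored 43990 (rank 93) in the RPL22L1 set and 11940 (rank 127) in the RPL22 set. The peak 23281 bases from RNU6-715P scored 36835 (rank 103) and 15516 (rank 100).

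Most peaks lay several kilobases from any gene. The median was 4876 bases (quartiles 972 and 17514) in the RPL22 set and 4649 (quartiles 1011.5 and 17699) in the RPL22L1 set. A gene lay within 1 kb of 25.4% (23.5 to 27.3) and 24.8% (23.1 to 26.6) of the peaks, and within 10 kb of 64.4% and 64.1%. More than 100 kb away were 64 and 77 peaks, with the farthest at 300241 and 339952 bases. The flat intergenic peaks lay farther out, with medians of 7022 and 6492 bases. Nearest was a protein-coding gene for 930 and 995 peaks, an lncRNA gene for 616 and 675, a pseudogene of any type for 402 and 469, a tRNA gene for 95 and 144, and a miRNA gene for 29 and 63. Within 20 bases of a gene, 74 of 103 RPL22 peaks and 102 of 133 RPL22L1 peaks had a tRNA gene as the nearest. The median score was 2243 in that bin and 90 at 21 to 100 bases for RPL22, and 2544 and 244 for RPL22L1. Farther out it was between 67.5 and 87 for RPL22 and between 175 and 235 for RPL22L1.

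**Figure D2:**
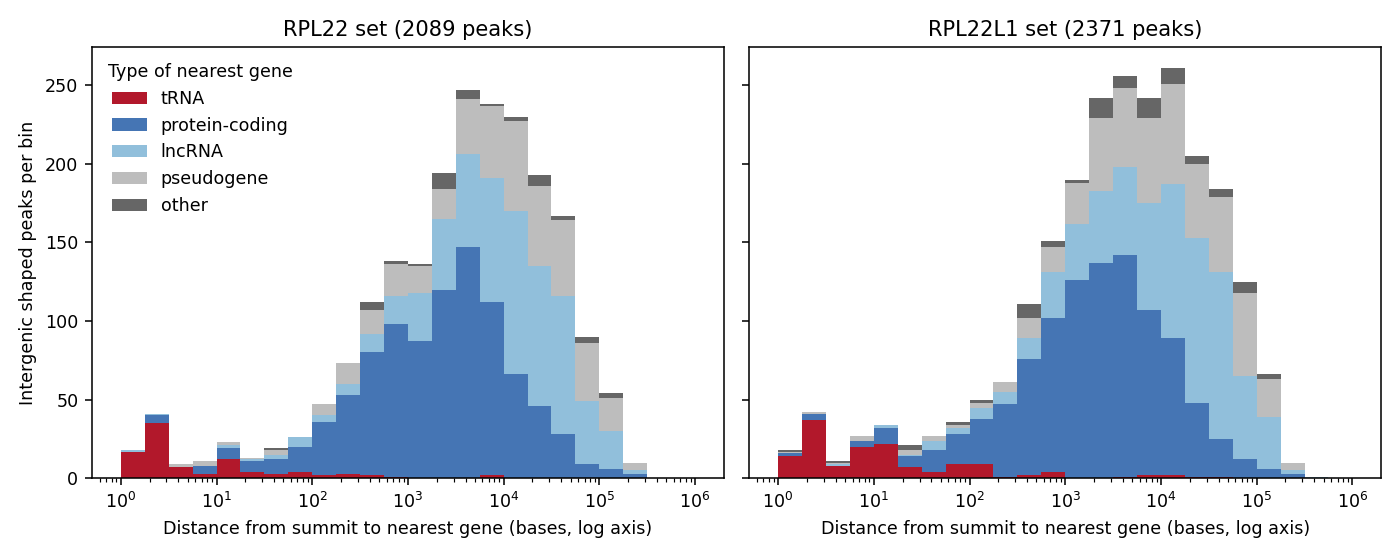
Number of intergenic shaped peaks per bin of distance from the summit to the nearest gene (logarithmic axis, bases), stacked by the type of that gene, in the RPL22 set (2089 peaks) and the RPL22L1 set (2371). A small group next to tRNA genes stands at distances up to 20 bases, and the bulk, next to protein-coding and lncRNA genes and pseudogenes, surrounds the medians of 4876 and 4649 bases.

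Close to protein-coding genes the share of peaks on the downstream side was lower for RPL22 than for RPL22L1, with intervals that did not meet. Within 1 kb of a protein-coding gene, leaving out tRNA edges and genes whose strand is not in the table, 146 RPL22 peaks were upstream of the gene start and 98 downstream of the gene end, so that 40.2% (34 to 46.6) were downstream. For RPL22L1 95 were upstream and 158 downstream, or 62.5% (56.2 to 68.4). Within 100 bases the counts were 25 upstream and 16 downstream in the RPL22 set against 11 and 41 in the RPL22L1 set, or 39% (24.2 to 55.5) and 78.8% (65.3 to 88.9) downstream. From 1001 to 5000 bases most peaks of both sets lay downstream, 70.2% (64.2 to 75.7) and 71.2% (65.6 to 76.4). The flat intergenic peaks within 1 kb had closer shares, 47.4% (44.4 to 50.5) downstream in the RPL22 set and 57.2% (54.9 to 59.5) in the RPL22L1 set. With 1 library per protein, the difference between proteins and the difference between libraries cannot be told apart.

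**Figure D3:**
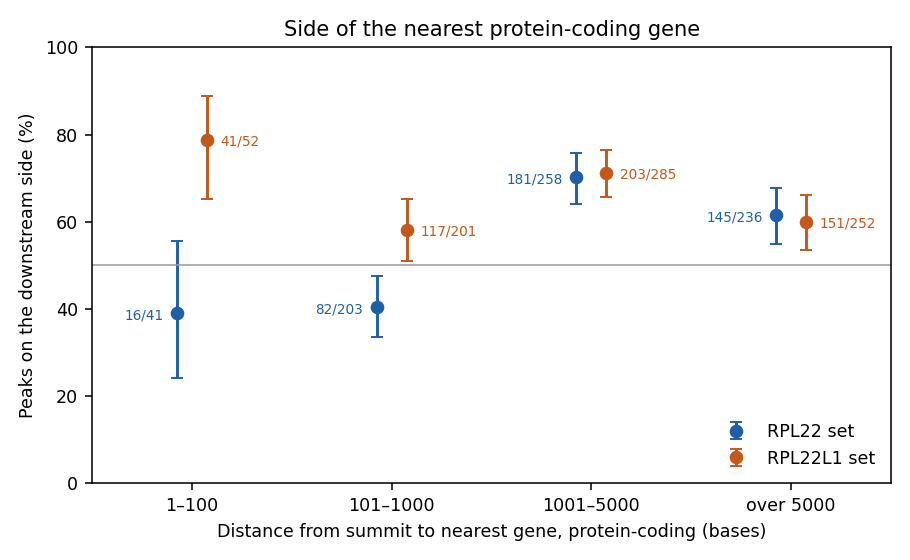
Percentage of intergenic shaped peaks on the downstream side of the nearest gene where that gene is protein-coding, by distance in bases, for the RPL22 set (blue) and the RPL22L1 set (orange). Bars are exact 95% intervals, the labels give downstream peaks over peaks on either side, and the line marks 50%; up to 100 bases the shares are 39% and 78.8%, and from 1001 to 5000 bases 70.2% and 71.2%.

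The promoter windows cover the upstream side. A share of 3.02% (2.33 to 3.84) of the RPL22 peaks and 1.22% (0.821 to 1.75) of the RPL22L1 peaks had the summit in one. Leaving out those at tRNA edges, the highest RPL22 scores in these windows were at ADA, the adenosine deaminase gene, with 1140 at 250 bases before the gene, SLC40A1, the iron exporter ferroportin gene, with 1066 at 152 bases, and FOXB2. The highest RPL22 peaks up to 100 bases downstream of a protein-coding gene were at LOC124902211 with a score of 302, and at LNX2 and the histone gene H4C12 with 151 each. For RPL22L1 they were at ISCA2, a mitochondrial iron-sulfur assembly gene, 68 bases downstream with 624, SERPINH1, a collagen chaperone gene, 17 bases downstream with 471, and HDHD2, 67 bases downstream with 392. The peak at SERPINH1 shared bases with the gene end, since it began at 75572774 on chromosome 11 and the gene ends at 75572783. These near downstream peaks were named after their values were seen. The genes beside the near peaks were mostly genes with shaped summits of their own. For RPL22, 86.2% of the 138 genes on the upstream side and 88.3% of the 94 on the downstream side had a shaped summit inside, against 51.9% of all protein-coding genes. For RPL22L1 the shares were 79.3% of 92 and 86.1% of 151, against 45.6%.

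Groups of genes next to the peaks were counted by the nearest gene within 5 kb. In all, 562 protein-coding genes (2.81%) had such a peak in the RPL22 set and 558 (2.79%) in the RPL22L1 set, and 130 genes had one in both. Of all intergenic shaped peaks away from tRNA genes, within 5 kb of a protein-coding gene and with a known side, 55.6% (279) in the RPL22 set and 67.1% (361) in the RPL22L1 set were downstream. Of the 74 replication-dependent histone genes, whose mRNAs end in a stem-loop in place of a poly(A) tail, 8 had such a peak in the RPL22 set and 9 in the RPL22L1 set. All 9 peaks next to them in the RPL22 set and 7 of 9 in the RPL22L1 set were downstream, among them H4C12 at 75 bases with a score of 151 and at 69 bases with 258. Of 38 HNRNP and SRSF genes, which encode splicing and RNA-packaging proteins, 2 had a peak in the RPL22 set, HNRNPU and HNRNPM. Among RPL22L1 peaks, 8 genes had one: SRSF4, SRSF6, SRSF7, HNRNPC, HNRNPD, HNRNPDL and HNRNPK on the downstream side, and HNRNPA1, whose strand is not in the table. Their scores ran from 39 to 323. Of 90 cytosolic ribosomal protein genes the RPL22L1 set had a downstream peak at 5, RPS26, RPL27, RPL9, RPL27A and RPL6, with scores from 32 to 257; the RPL22 set had a peak at 2 genes, among them RPL9 with a score of 59.

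Other gene groups had few peaks by count. Of 69 genes with an EIF or EEF symbol, a group taken by symbol alone, 3 had a peak in the RPL22 set (EIF4H, EIF3A and EIF4A3). In the RPL22L1 set 4 had one, among them EEF1AKMT2, a methyltransferase gene and no translation factor, with a score of 224, and EEF1A1, which encodes an elongation factor, with scores of 94 and 29 for 2 downstream peaks. Of 517 ZNF genes 18 and 16 had one. Of 29 SNHG genes, hosts of small nucleolar RNAs, SNHG21 had one in the RPL22 set and SNHG5, SNHG10 and SNHG26 in the RPL22L1 set. Of 154 snRNA genes 3 and 9 had one; in the RPL22L1 set RNU6-1, a copy of the U6 spliceosomal RNA and like tRNA genes read by RNA polymerase III, had a summit 4 bases outside with a score of 1403. Of 1196 snoRNA genes 4 and 5 had one. As shares in the RPL22 and RPL22L1 sets, SNHG genes had 3.45% and 10.3%, and EIF or EEF genes 4.35% and 5.8%. The shares were 1.95% and 5.84% for snRNA genes, 3.48% and 3.09% for ZNF genes, and 0.334% and 0.418% for snoRNA genes. Beside them stand 2.81% and 2.79% of all protein-coding genes. MDM2 and MDM4, which encode regulators of p53, and RPL22 and RPL22L1 themselves had none in either set.

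The overlap between the sets was counted for each intergenic shaped peak and set beside that of the other peaks. Of the 2089 RPL22 peaks 632 shared at least 1 base with an RPL22L1 peak of any kind, which is 30.3% (28.3 to 32.3), beside 39.2% of the shaped peaks and 17.4% of all peaks of the set. Of the 2371 RPL22L1 peaks 473 overlapped an RPL22 peak, or 19.9% (18.4 to 21.6), beside 26% of the shaped peaks and 10.6% of all peaks. Among flat intergenic peaks the shares were 3.04% and 2.84%. At tRNA edges the share was 89.3% (80.1 to 95.3) in the RPL22 set and 77.5% (68.1 to 85.1) in the RPL22L1 set, and without them 28.1% and 17.4%.

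The overlap share was largest at the highest scores. For RPL22 it went from 14.3% (84 of 589) at scores under 50 through 37.4% at 100 to below 300 to 97.7% (42 of 43) at 10000 and above. For RPL22L1 it was 7.19% (12 of 167) under 50, 5.48% (17 of 310) at 50 to below 100, 11.5% at 100 to below 300 and 89.1% (41 of 46) at 10000 and above. At scores from 100 to below 300 the share was below that of shaped peaks in genes with intervals that did not meet, at 37.4% (33 to 42) against 51% (50.2 to 51.7) in the RPL22 set and 11.5% (9.59 to 13.6) against 21.2% (20.7 to 21.7) in the RPL22L1 set. At 10000 and above the share was the higher one in the RPL22L1 set, with 89.1% (76.4 to 96.4) against 55.7% (48 to 63.2). All 22 peaks at tRNA edges overlapped there, and away from them 19 of 24 did, or 79.2% (57.8 to 92.9), an interval that met that of the peaks in genes. The intervals at that level met for RPL22, with 97.7% (87.7 to 99.9) against 90.5% (83.2 to 95.3).

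**Figure D4:**
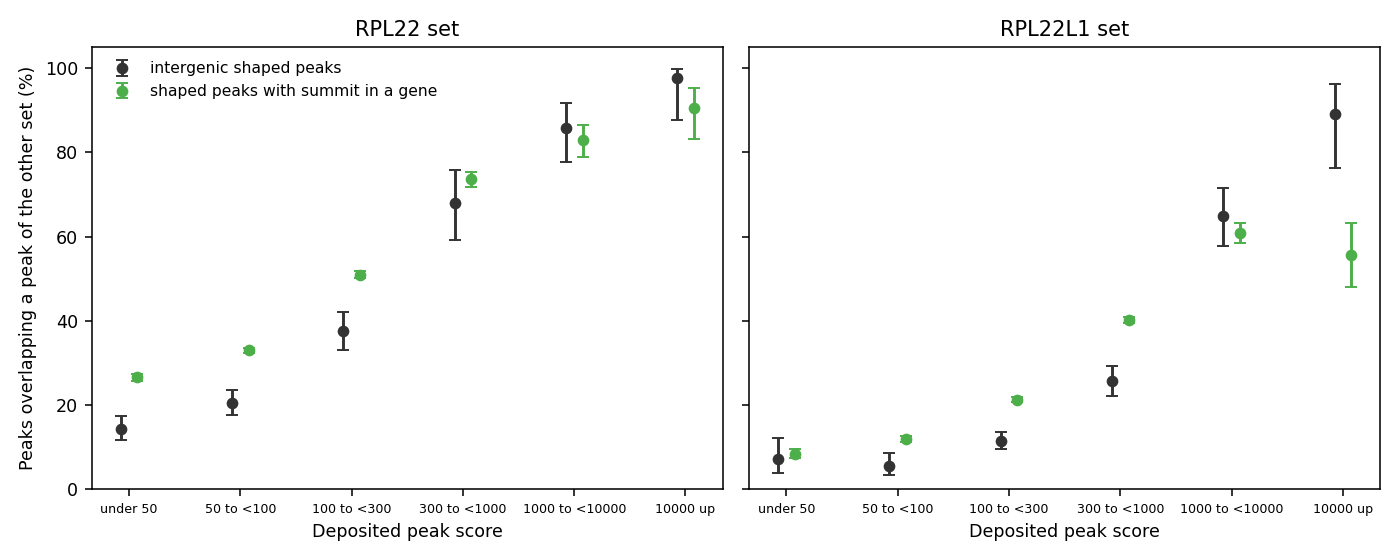
Percentage of peaks that share at least 1 base with a peak of the other set, by deposited score, for intergenic shaped peaks (dark) and shaped peaks with the summit in a gene (green), in the RPL22 set (left) and the RPL22L1 set (right). Bars are exact 95% intervals; the intergenic share is 14.3% in the lowest and 97.7% in the highest bin of the RPL22 set, and 7.19% and 89.1% in those of the RPL22L1 set, where the share in genes is 55.7%.

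The kind of partner was uneven. Of the 632 overlapping RPL22 peaks, 413 met an intergenic shaped peak of the RPL22L1 set and 214 a flat intergenic peak, while of the 473 RPL22L1 peaks 412 met an intergenic shaped peak and 48 a flat one. In the 413 pairs the median gap between the summits was 2 bases, and 268 pairs (64.9%) were within 5 bases. Both bounds were identical in 58 pairs, and the RPL22L1 peak was the wider one in 217. The scores of the 413 pairs had a Spearman rho of 0.73, and the 348 pairs away from tRNA edges one of 0.59, as a description of peaks that share the genome position and the peak caller. Among the pairs with the best ranks in both sets were those at TRL-CAG2-2, TRUND-NNN1-1, TRL-AAG2-4 (47027, rank 44, and 40780, rank 98) and TRC-GCA14-1. A peak of the other set lay within 1000 bases, overlapping ones included, of 62.2% of the RPL22 and 44.7% of the RPL22L1 intergenic shaped peaks, of 80.9% and 59.5% of the shaped peaks in genes, and of 25.3% and 23.2% of the flat intergenic peaks.

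**Figure D5:**
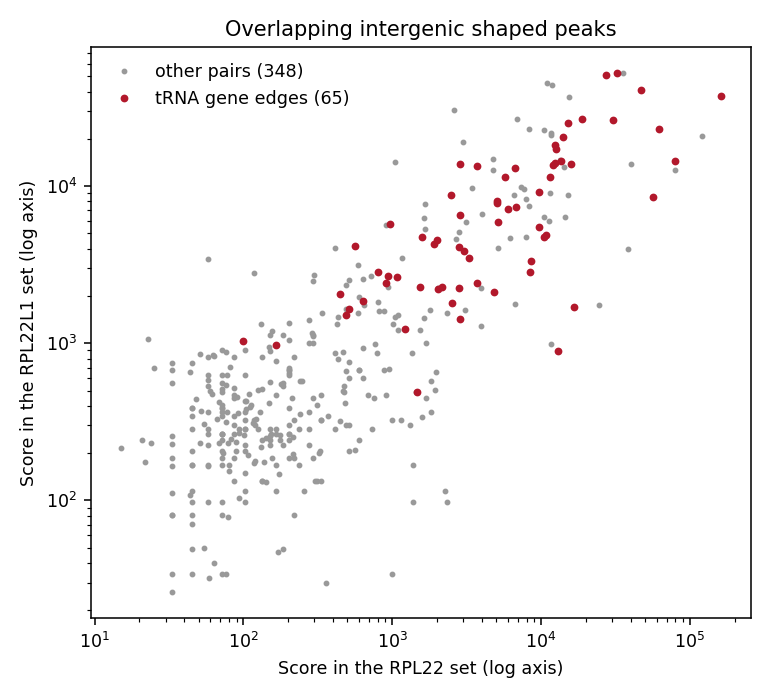
Score in the RPL22L1 set against score in the RPL22 set (both axes logarithmic) for the 413 pairs of overlapping intergenic shaped peaks, with pairs at tRNA gene edges in red (65) and other pairs in grey (348). The red points lie mostly at the upper end of both axes, and the rank correlation over all pairs is 0.73.

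Most peaks stood alone. Summits were chained where neighbouring ones were at most 1000 bases apart, and chains of at least 3 peaks were called clusters. For RPL22, 1831 of 2089 peaks were single, 98 chains were pairs, and 19 clusters held 62 peaks, or 2.97% (2.28 to 3.79). For RPL22L1, 1914 of 2371 were single, 135 chains were pairs, and 51 clusters held 187 peaks, or 7.89% (6.83 to 9.05). With all 30-base peaks left out, the shares were 0.698% and 6.72%. A peak of the other set was counted within the span of 15 of the 19 and 29 of the 51 clusters. This count left out some overlapping peaks. The RPL22 cluster nearest to LOC107986047 held 1 peak that overlapped the other set, yet no peak was counted in its span. Spans overlapped a cluster of the other set in 2 cases, nearest to LOC124907987 and OR51AB1P. Only 1 cluster in each set held a tRNA-edge peak.

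The largest clusters lay beside or far from genes of several kinds. In the RPL22L1 set 9 peaks filled chr1:199686324-199688631, 58111 bases from the pseudogene RIDAP1, with scores from 27 to 440. Another 7 lay 9706 bases from KHSRPP1, a pseudogene on chromosome 9, with scores from 74 to 696. A cluster of 6 began 525 bases upstream of TCF7L2, a transcription factor of the Wnt pathway, with scores from 34 to 804, and no RPL22 peak lay in its span. The 5 peaks at 222 bases from PCNPP3 had scores from 76 to 2809, and 5 at 6003 bases from MIR10396A on chromosome 21 from 138 to 554. The largest RPL22 cluster held 5 peaks 4164 bases downstream of the lncRNA gene LOC107987110, with scores from 26 to 72. None of them overlapped an RPL22L1 peak, though 3 RPL22L1 peaks were counted in the span of the cluster. Clusters of 4 lay near MIR10396A (58 to 220), LOC124907987 (51 to 159) and LINC02458 (56 to 146), and 3 peaks lay 11515 bases from ELOCP18 with scores from 342 to 1472.

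Some of these neighbourhoods extended past a single cluster. Upstream of MIR31HG, the host gene of miR-31, on chromosome 9 the RPL22L1 set had 17 peaks between 2072 and 31693 bases from the gene, 15 of them in 5 clusters, with scores from 33 to 579. The RPL22 set had 4 peaks there, with scores from 51 to 383, and 1 peak of each set overlapped the other. Near LOC124907987 on chromosome 2 both sets were represented, with 12 RPL22 peaks of which 8 overlapped and 16 RPL22L1 peaks of which 6 overlapped. Beside ELOCP18 on chromosome 1 the RPL22 set had 3 peaks and the RPL22L1 set 8, and none overlapped: the RPL22 peaks ended at 68388829 and the RPL22L1 peaks began at 68389372. These 3 neighbourhoods were picked after the clusters were seen. By nearest gene within 5 kb, LINC02458 had the most RPL22 peaks, 5, followed by CBLC, NRF1, MIR10396A and OR51B4 with 4 each. For RPL22L1 TCF7L2 had 8, the lncRNA gene LOC646736 7, MIR5702 and ZNF460 6 each, and COX20 5. The other set had 1 to 3 peaks beside each of these 10 genes.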

How the data were processed

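Per the submitters' processing notes, cutadapt 4.8, STAR 2.7.10a, UMI-tools 1.1.5 and MACS3 3.0.0a6 were used with genome build hg38; their roles, settings and any control are not given in the sources used here. Each deposited peak list, 1 per library, gives a position, a summit offset and a whole-number score, whose scale the authors' files do not state. Summits were placed in the RefSeq gene table of GRCh38.p14 (59098 genes on the chromosomes used) with Python 3.11.15, pandas 2.3.3 and scipy 1.17.1. Overlap means at least 1 shared base. Sides of genes came from the strand in the RefSeq promoter table. Routines were tested on simulated data. Named are the 10 highest-scoring peaks per list, the 5 best shared and unshared ones, the 5 largest clusters, the 5 genes with most peaks and the 3 highest promoter-window peaks, plus examples said to be chosen later. Peaks on chromosome 8 and 1 other peak that the rule selects were counted but are not reported here by name. The members and gene groups were chosen with earlier results of these data known. Alternatives stand in the closing section.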

Additional observations from a re-analysis of the deposited data

How the results depend on the processing

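Each count or share was recomputed under other choices, and 43 of 92 such values stayed within 1.5 times the count or inside the 95% interval of the value reported, while 49 moved past it. Values are given for the RPL22 set first and the RPL22L1 set second. Leaving out all 30-base peaks left 860 and 1474 peaks, with overlap shares of 46% and 24.8%, 27.9% of the RPL22 peaks within 1 kb of a gene at a median of 4382 bases, cluster shares of 0.698% and 6.72% and top-10% shares of 51.4% and 46.3%. Requiring the whole peak outside every gene gave overlaps of 27.9% and 17.2%, 21.5% and 20.3% within 1 kb, medians of 5451 and 5388 bases and top-10% shares of 24.9% and 31.5%. Overlap was 21.8% and 15.2% when at least 50% of both peaks had to be shared, 19.9% and 18% against shaped peaks alone, and 37% and 22.8% for summits within 100 bases. Counting only peaks that reached the median score, the RPL22L1 overlap was 25% and its cluster share 5.59%. To the nearest gene that is no pseudogene, 22.4% and 22.7% lay within 1 kb at medians of 5976 and 5942 bases, and to the nearest protein-coding gene 15.6% and 13.7% at 14407 and 15953. Clusters held 0.431% and 1.18% of peaks at gaps of up to 200 bases and 11.3% and 21% at up to 5000. Ranked among shaped peaks, 15.7% and 15.3% were in the top 10%. The remaining changes were chosen after seeing the data. Without tRNA edges the overlaps were 28.1% and 17.4%, the shares within 1 kb 22.6% and 21.5%, the RPL22L1 median 5229 bases and the top-10% shares 24.9% and 31.5%. The downstream share was 78.8% in the RPL22L1 set within 100 bases and 47.4% for flat RPL22 peaks. It stayed below 50% in the RPL22 set and above 50% in the RPL22L1 set under all 5 alternatives run, none of which reached past 1 kb. Several intervals included 50%. For RPL22 these were within 100 bases (24.2 to 55.5), without centred summits (35.6 to 50.03) and for flat peaks (44.4 to 50.5). For RPL22L1 it was the one without 30-base peaks (47.8 to 64.8). Within 5 kb the RPL22 share was above 50%, at 55.6% (51.1 to 60). No paired analysis was possible because each group is 1 library and the labels carry no replicate numbers.

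The lists give no read counts, so no value has a depth behind it, and with 1 library per protein the intervals cover counting error only. HaloTag alone was not analysed here, and background common to the libraries was not measured.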
